A study of Mus musculus with 10 samples.

Results

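The nuclear genes for mitochondrial ribosomal proteins were followed in the hearts of *Rit1* M90I/+ mice given the MEK1/MEK2 inhibitor trametinib (MEKi) or vehicle control. They were taken as every protein-coding gene of the deposited table whose symbol starts with *Mrpl* or *Mrps* and a number, which gave 78 genes of 54532, 49 named for the large and 29 for the small subunit. All mice carried the M90I allele of *Rit1*, which causes Noonan syndrome in humans, and no wild-type heart was in the series. The allele came from crossing males with a conditional *Rit1* M90I allele to cytomegalovirus-Cre deleter females, so its expression was not restricted to the heart. Each group had 5 hearts. The 5 MEKi mice were dosed daily with trametinib at 1 mg/kg, starting at 4 weeks of age and lasting 20 weeks, and the 5 vehicle mice received the carrier over the same time. RNA was purified by its poly(A) tail. Values are FPKM, in which fragments are scaled by gene length and by a factor for each heart. That factor was not the depth itself. It lay below the fragments on annotated genes in vehicle heart 3 and MEKi heart 4, among others, and above them in vehicle heart 2, among others. Differences between hearts, and their position above or below 0, depend on it. The length counts the bases of all annotated exons, so levels compared between genes depend on it.

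Mitochondrial ribosomes sit at the inner mitochondrial membrane and translate the few mRNAs of the mitochondrial genome, which encode core subunits of the respiratory chain and of the ATP synthase. Their RNA comes from mitochondrial DNA, whereas all their proteins are encoded in the nucleus, made in the cytosol and imported. Many of these proteins have counterparts in bacterial ribosomes and others were added in mitochondria. The heart depends on oxidative phosphorylation, and defects in several of these proteins cause cardiomyopathy in humans.

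Members whose promoters hold motifs of factors known to drive nuclear genes for mitochondrial proteins are shown here, since shared promoter letters are a property that the choice by name did not use. The motifs searched were the ETS core CCGGAAG, which GABPA and other ETS factors bind, CGCATGCGC for NRF1 and AAGATGGCG for YY1, each on both strands. None of these motifs contains another, and the NRF1 letters can match both strands at overlapping positions. The sequences are bases 100 to 1 upstream of the RefSeq transcript start (GRCm38.p6), written along the gene's own strand, with the ETS core and NRF1 matches in capitals. The RefSeq start can differ from the start of the deposited gene span.
*Mrpl43* (chr19:45006443-45006542, minus strand, 2 ETS cores): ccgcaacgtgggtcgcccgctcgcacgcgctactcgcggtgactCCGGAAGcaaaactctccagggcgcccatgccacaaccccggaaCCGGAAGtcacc
*Mrpl22* (chr11:58171564-58171663, plus strand, ETS core and NRF1): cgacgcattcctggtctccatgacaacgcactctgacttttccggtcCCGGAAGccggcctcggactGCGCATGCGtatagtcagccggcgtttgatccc
*Mrps18a* (chr17:46110904-46111003, plus strand, ETS core): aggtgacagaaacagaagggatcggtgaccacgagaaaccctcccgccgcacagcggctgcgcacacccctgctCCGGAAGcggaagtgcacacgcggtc
*Mrpl27* (chr11:94653691-94653790, plus strand, ETS core): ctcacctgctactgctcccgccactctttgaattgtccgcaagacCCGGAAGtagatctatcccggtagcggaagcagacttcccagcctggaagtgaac
*Mrpl17* (chr7:105811088-105811187, minus strand, NRF1): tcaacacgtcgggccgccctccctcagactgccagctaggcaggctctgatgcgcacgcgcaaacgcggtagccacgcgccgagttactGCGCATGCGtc
*Mrpl9* (chr3:94443236-94443335, plus strand, NRF1): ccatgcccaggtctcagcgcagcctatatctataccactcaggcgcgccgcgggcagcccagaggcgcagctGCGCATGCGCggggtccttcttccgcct

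RefSeq promoter windows, from 250 bases before to 50 bases after a transcript start, were matched for 69 of the 78 genes (75 windows). The ETS core was in 34.7% of these windows, against 17.1% of the 11246 windows of the other protein-coding genes tested and 8.86% of all 32851 windows. It was found for 26 genes, 5 of which had at least 2 cores, and 28 of the 31 cores began within 100 bases of the transcript start. The NRF1 letters were in 9.33% of the members' windows, 3.55% of those of other tested genes and 1.75% of all. The YY1 letters were in 10.7%, 3.01% and 1.40%. The CCAAT box was about as frequent in members (40%) as in other tested genes (37.2%) and in all windows (37.4%), and TATAAA was in 6.67%, 7.19% and 13.6%. The GC content of the members' windows (median, 58.7%) was below that of other tested genes (61.0%) and above that of all windows (52.7%). These shares are descriptions of letters, and binding was not measured.

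**Figure D1:**
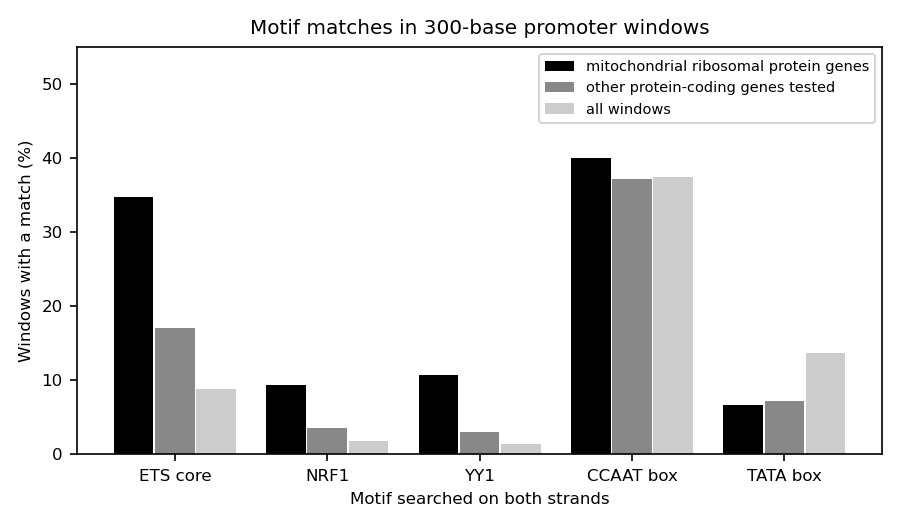
Bars give the percentage of promoter windows with a motif match on either strand (y axis, from 0) for 5 motifs (x axis), in 75 windows of mitochondrial ribosomal protein genes, 11246 windows of other protein-coding genes tested and all 32851 windows. The ETS core, NRF1 and YY1 letters were more frequent in the members' windows (34.7%, 9.33% and 10.7%), whereas the CCAAT box was at similar shares in the 3 sets.

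The members were spread over 17 chromosomes, with 11 genes on chromosome 11, and none was on chromosome X or Y. Many lay close to a neighbor transcribed the other way. Of the 77 members that passed the expression filter, 19 (24.7%) started within 1000 bases of a protein-coding gene in head-to-head orientation. The share was 10.1% of the 11175 other protein-coding genes tested. Pairs whose spans overlap at their starts, such as *Mrpl46* and *Mrps11*, were counted in neither share. Some partners also serve mitochondria. *Mrps12*, for a protein of the decoding center, started 172 bases from *Sars2*, the mitochondrial seryl-tRNA synthetase, and *Mrpl43* started 116 bases from *Twnk*, the mitochondrial DNA helicase.

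Before the members are compared, some facts of the 10 hearts bear on all results. The hearts had from 13647167 to 18474002 fragments on annotated genes, and from 61145 to 96071 of them fell on the members. *Xist*, which is transcribed from the inactive X chromosome of females, had 1456 or more fragments in every MEKi heart and at most 2 in any vehicle heart, while the Y-linked *Ddx3y* had 814 or more in every vehicle heart and 0 in the MEKi hearts. The split by drug was thus the same as the split by these transcripts, and the parts of drug and sex in any difference cannot be told apart. The summed FPKM of 6 cardiomyocyte markers was from 14563 to 20089 in vehicle and from 14342 to 19792 in MEKi hearts, so cardiac muscle was present in every sample. Markers of some other cell types differed widely among hearts. The summed FPKM was from 2.86 to 861 in vehicle and 3.51 to 708 in MEKi hearts for atrial muscle (5 genes), from 0.407 to 92.0 and 5.29 to 89.6 for adipocytes (4 genes), and from 2899 to 25874 and 2918 to 7386 for red cells (5 genes). The 5 macrophage markers summed to 172.6 to 312 FPKM in the vehicle group and 151.8 to 190.2 FPKM in the MEKi group. In bulk tissue, fewer cells of a type and less RNA per cell cannot be told apart.

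All but 1 of the mitochondrial ribosomal protein genes were well measured, and their FPKM values spanned a wide range. The 77 members past the filter (0.5 FPKM or more on average) had mean levels from 3.19 to 149 FPKM, a 46.9-fold range, with a median of 22.01 FPKM, and 76 of them exceeded the median of the protein-coding genes tested (3.87 FPKM). Each had at least 136 fragments in every heart. *Mrpl53* was listed at 0 in all 10 hearts. On the same strand its span lies within that of *Gm42688* over 900 bases, and fragments shared by overlapping genes can be lost in counting, so its listing at 0 is not read as absence of the mRNA. Genes named for the large subunit had a median level of 23.8 FPKM (48 genes) and those named for the small subunit 16.2 FPKM (29 genes). Members with a bacterial counterpart (48 genes, median 20.6 FPKM) and those added in mitochondria (29 genes, median 23.5 FPKM) were at similar levels.

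*Mrpl34* (chromosome 8, 71464959 to 71465747, plus strand), which encodes a small conserved protein of the large subunit, had the highest mean. It was at 178, 172, 140.2, 143 and 122 FPKM in vehicle hearts 1 to 5 and at 151, 149.8, 132, 149 and 158 FPKM in MEKi hearts 1 to 5. The MEKi values all lay inside the vehicle range. *Mrps21*, a conserved small-subunit protein, followed with a mean of 139 FPKM, from 102 to 179 FPKM in the vehicle group and from 108 to 165 FPKM in the MEKi group. Next in order were *Mrpl28* (mean 121 FPKM), *Mrps23* (102 FPKM) and *Mrpl12* (100.2 FPKM). *Mrpl12* encodes the stalk protein that helps to recruit translation factors and is, unlike most of the proteins, present in several copies per ribosome. Its level was 112, 97.2, 75.6, 109 and 75.1 FPKM in the vehicle group and 106, 104, 92.7, 114 and 117 FPKM in the MEKi group. Vehicle hearts 3 and 5 were the low ones and the groups overlapped (log2 difference 0.20, SE 0.13, limma adjusted p = 0.757).

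At the other end of the order were *Mrps10* (mean 3.19 FPKM), *Mrps30* (4.61 FPKM), *Mrpl19* (5.06 FPKM) and *Mrpl47* (5.19 FPKM). Neighbors in the order of levels were rarely separated. Of the 76 pairs of adjacent genes, 1 had the same order in all 10 hearts, *Mrps30* above *Mrps10*, whose means differed 1.45-fold. Members with low FPKM were often long by the deposited gene length, which counts the bases of all annotated exons (8079 bases for *Mrps10* and 607 for *Mrpl34*). In fragments per heart these 2 genes were closer, at 324 to 496 and 1074 to 1816. The range and order in FPKM thus depend on this length. The 3 paralogs of bacterial S18 differed in FPKM, with deposited lengths of 3690 (*Mrps18a*), 2089 (*Mrps18b*) and 1076 bases (*Mrps18c*). In fragments per heart they were at 746 to 1423, 136 to 268 and 208 to 460. *Mrps18a*, whose protein sits in the large subunit despite its name, and *Mrps18c* had means of 19.1 and 18.8 FPKM, whereas *Mrps18b* had 6.22 FPKM. The highest *Mrps18b* value of any heart was 7.48 FPKM and the lowest value of *Mrps18a* and *Mrps18c* was 12.3 FPKM.

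**Figure D2:**
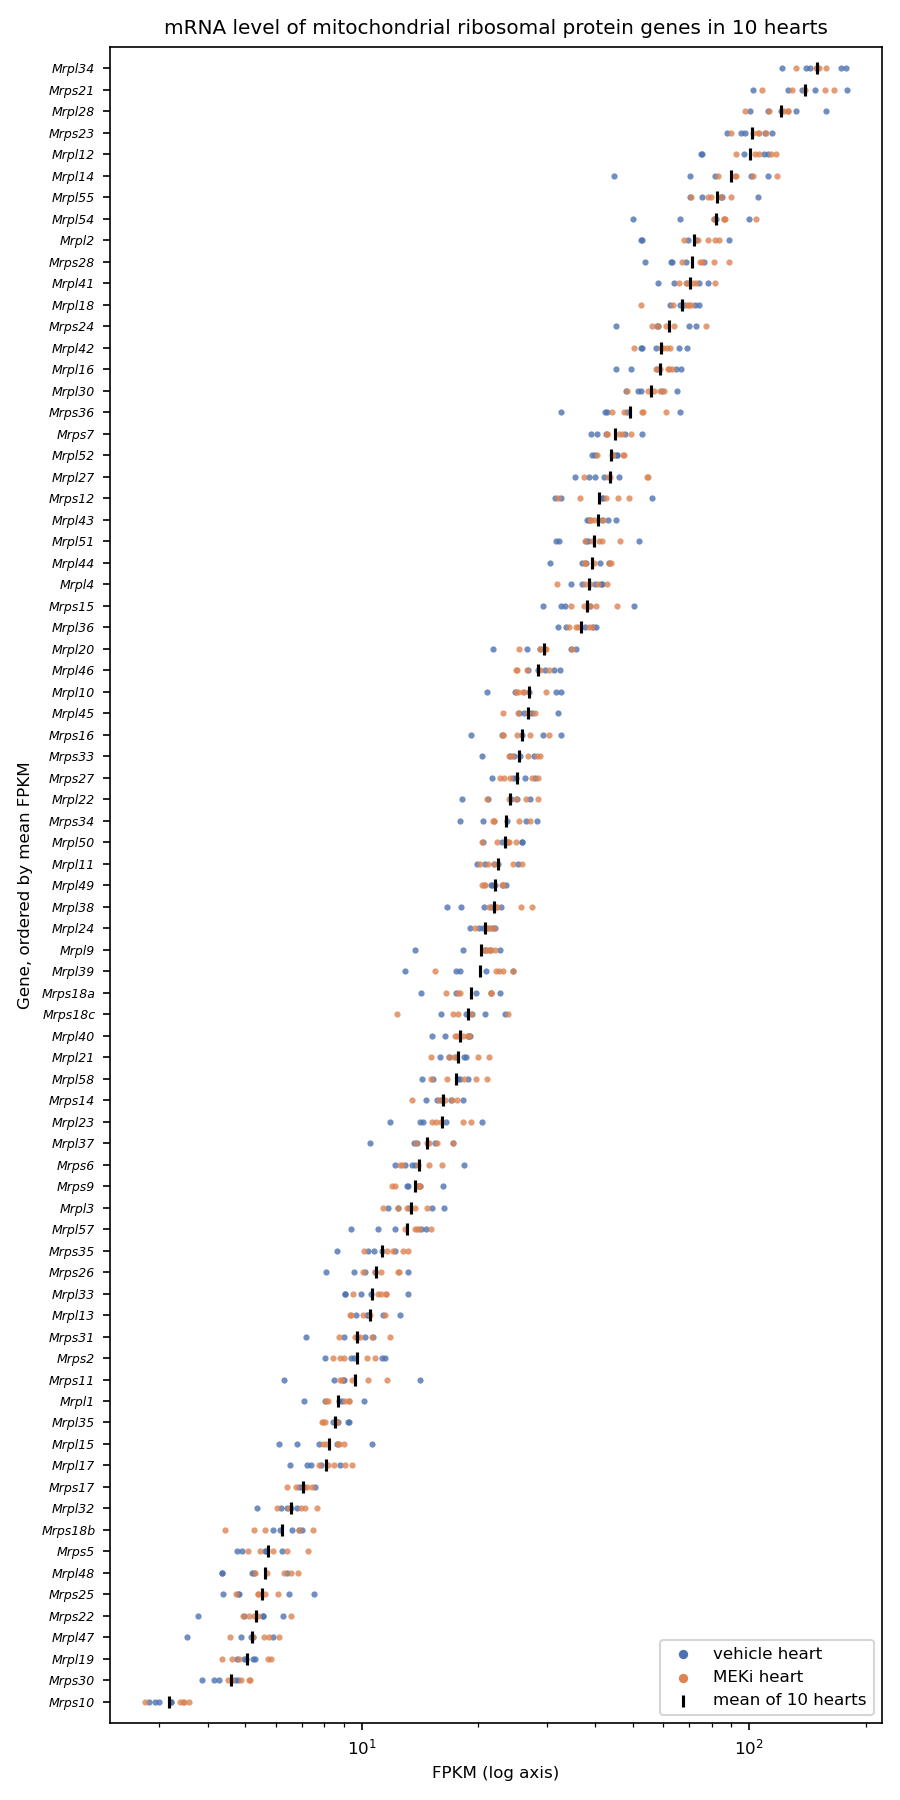
Each row is a mitochondrial ribosomal protein gene past the filter, ordered by its mean over 10 hearts (black tick), and each point is the level in a heart in FPKM on a log axis (blue, 5 vehicle hearts, and orange, 5 MEKi hearts). Means run from 3.19 FPKM (*Mrps10*) to 149 FPKM (*Mrpl34*), and in every row the vehicle and MEKi points overlap.

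The comparison of MEKi with vehicle asked whether mRNAs of the mitochondrial ribosome changed when MEK was inhibited in the *Rit1* M90I/+ heart. No member passed the threshold. The fit was limma on log2(FPKM + 0.1) with Benjamini-Hochberg adjustment over all 12602 genes tested. In it, 0 of the 77 members and 10 of all genes (0.0794%) had an adjusted p under 0.05. The lowest adjusted p of a member was 0.619. Of the 10 genes, 4 were on the list of sex-linked transcripts. A fit that excluded both sex chromosomes and the mitochondrial genome called 0 genes. The parts of drug and sex in the 10 cannot be told apart, so they are not read as drug responses that the members lacked. At an unadjusted p under 0.05 there were 3 members (3.90%), against 7.62% of all genes tested. All 3 were higher with MEKi, where the share over all genes was 3.67%. In no member did the 2 groups separate without overlap, compared with 1.64% of all genes tested. The count of 3 rested on single hearts. It was 9 without vehicle heart 1, where 9.84% of all genes had such a p. It was 0 without vehicle heart 3, vehicle heart 5 or MEKi heart 4, where the shares were 9.99%, 6.90% and 6.47%.

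On the FPKM scale, most members had narrow intervals for the difference. These intervals hold drug and sex together and are not adjusted for the number of genes. The 95% interval of the MEKi-to-vehicle difference lay within 1.5-fold in either direction for 74 of the 77 members (96.1%), against 64.6% of all genes tested, and within 2-fold for all 77. The 3 members whose interval reached past 1.5-fold were *Mrpl14*, *Mrpl39* and *Mrpl54*, all on the higher side. Estimated differences ran from −0.15 to 0.31 on the log2 scale, with a median of 0.05 beside 0.01 for all genes tested. Of the members, 53 were above and 24 below 0, where 52.1% of all genes tested were above 0. On a TPM scale, where the values of each heart sum to a fixed total, 68 of the 77 members were above 0. The median was 0.12 beside 0.09 for all genes. The number of members above 0 and the position of the intervals thus depend on the scaling. Medians were 0.05 for members named for the large and 0.03 for those named for the small subunit, the latter −0.004 with quantile normalization. They were 0.03 for members with a bacterial counterpart (31 of 48 above 0) and 0.09 for those added in mitochondria (22 of 29 above 0), and these classes were not tested against each other.

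**Figure D3:**
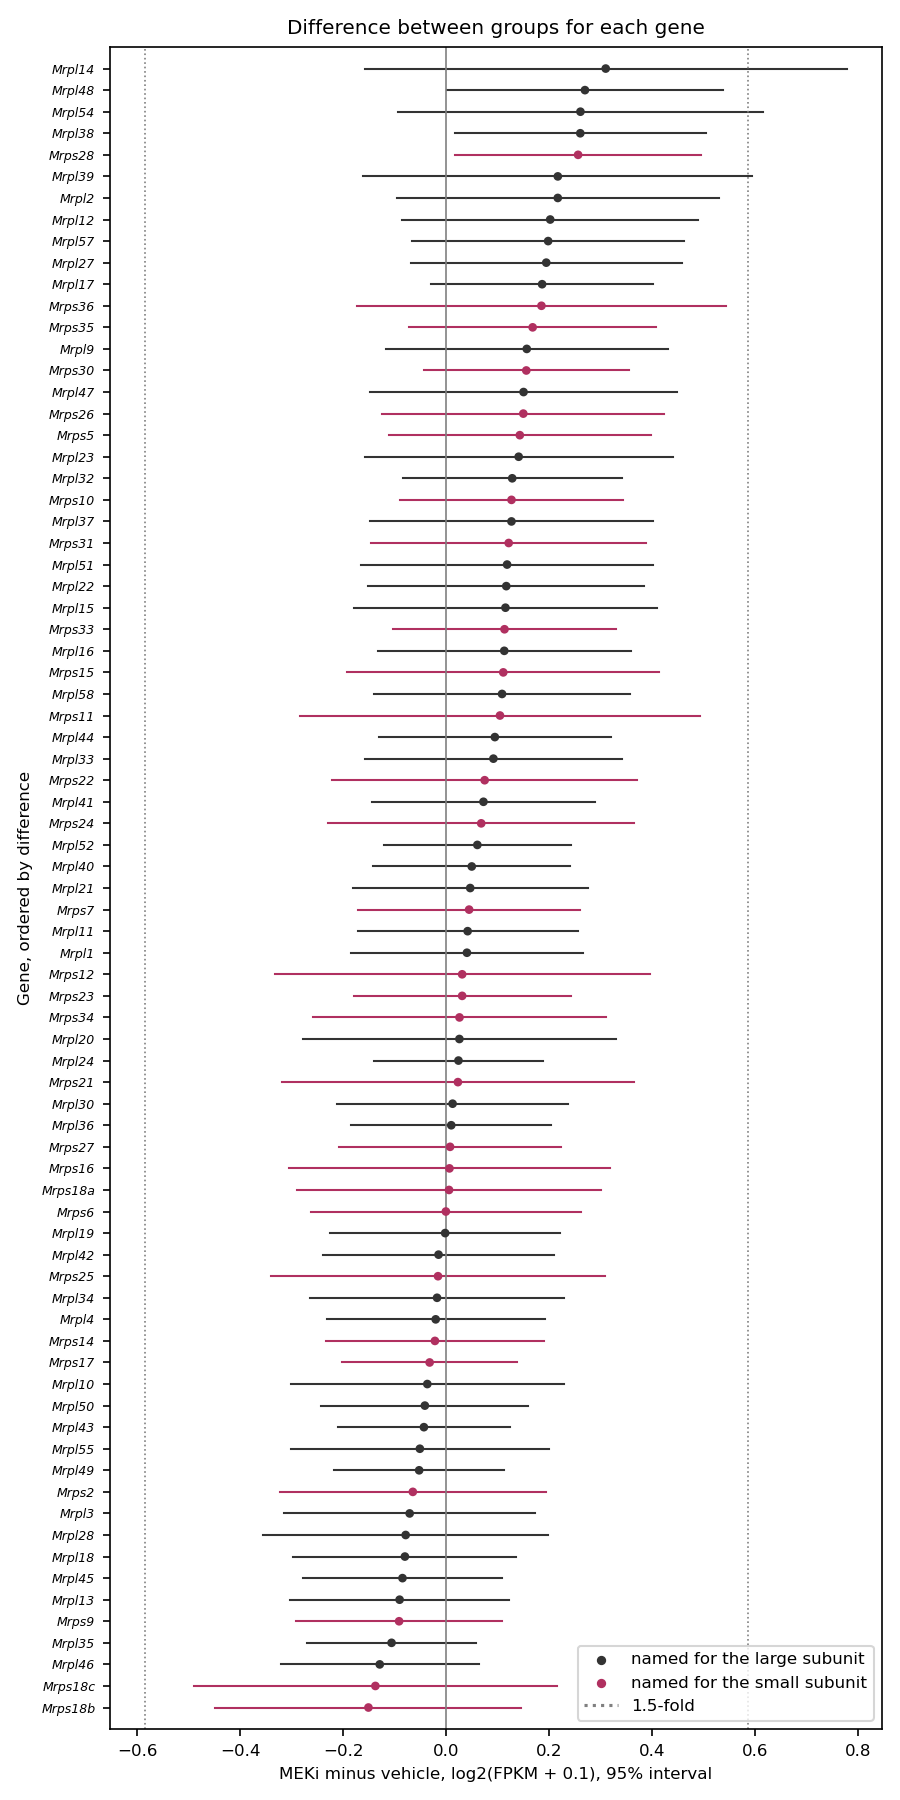
Points give the MEKi minus vehicle difference in log2(FPKM + 0.1) for each of 77 members and lines its 95% interval from limma (5 hearts per group), in black for genes named for the large and red for those named for the small subunit. Dotted lines mark 1.5-fold in either direction. The estimates run from −0.15 (*Mrps18b*) to 0.31 (*Mrpl14*), and 74 intervals stay between the dotted lines.

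Members of the large subunit with the smallest unadjusted p included proteins of its central protuberance, the region that faces the small subunit at the top of the ribosome. *Mrpl38* (chromosome 11, 116131817 to 116138868, minus strand) was at 22.8, 20.7, 18.0, 21.6 and 16.6 FPKM in vehicle hearts 1 to 5 and at 22.4, 22.2, 21.3, 25.8 and 27.5 FPKM in MEKi hearts 1 to 5. MEKi hearts 4 and 5 were above every vehicle heart, and the other 3 lay within the vehicle range. The log2 difference was 0.26 (SE 0.11, limma adjusted p = 0.619, and p = 0.0556 by a two-sided exact permutation test). *Mrpl48* (chromosome 7, 100545751 to 100608301, minus strand), another protein of the central protuberance, was at 6.39, 5.27, 4.35, 4.36 and 5.21 FPKM in the vehicle group and at 5.70, 6.56, 6.31, 6.85 and 5.32 FPKM in the MEKi group. Vehicle heart 1 lay above 3 of the MEKi hearts (log2 difference 0.27, SE 0.12, limma adjusted p = 0.652). *Mrpl48* overlaps *Rab6a* on the opposite strand by 892 bases. Another protein of this region pointed the other way in its estimate. *Mrpl46* was at 29.7, 31.3, 28.6, 32.4 and 26.8 FPKM in the vehicle group and at 28.8, 24.998, 30.4, 26.8 and 25.2 FPKM in the MEKi group, which overlapped (log2 difference −0.13, SE 0.09, limma adjusted p = 0.767). It shares 413 bases with *Mrps11*, itself a member, on the opposite strand.

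Of the other large-subunit members, *Mrpl17*, a conserved protein whose promoter with NRF1 letters is given above, was at 8.81, 7.38, 6.53, 7.83 and 7.22 FPKM in the vehicle group and 7.76, 9.44, 9.05, 8.50 and 8.17 FPKM in the MEKi group. MEKi hearts 2 and 3 exceeded all vehicle hearts (log2 difference 0.19, SE 0.10, limma adjusted p = 0.696). *Mrpl57*, a protein added in mitochondria, ranged from 9.40 to 14.6 FPKM in the vehicle group and from 12.9 to 15.1 FPKM in the MEKi group (log2 difference 0.20, SE 0.12, limma adjusted p = 0.741). *Mrps30*, named for the small subunit although its protein sits in the large subunit, averaged 4.36 ± 0.384 FPKM in the vehicle group and 4.86 ± 0.287 FPKM in the MEKi group (SD, n = 5 each), with 3 MEKi hearts above all vehicle hearts (log2 difference 0.16, SE 0.09, limma adjusted p = 0.727). *Mrpl35*, a conserved protein, varied least of all members among hearts of the same group. It was at 8.41, 9.21, 9.27, 8.70 and 8.65 FPKM in the vehicle group and at 8.57, 8.63, 7.90, 8.02 and 7.93 FPKM in the MEKi group. MEKi hearts 3, 4 and 5 were below every vehicle heart, and the other 2 were above vehicle heart 1 (log2 difference −0.11, SE 0.08, limma adjusted p = 0.775; two-sided exact permutation test, p = 0.0397 without adjustment).

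*Mrpl45* encodes the protein that anchors the ribosome to the inner membrane at the exit of the nascent chain. It was at 27.015, 27.5, 32.02, 26.3 and 25.5 FPKM in the vehicle group and at 28.003, 25.3, 26.9, 23.2 and 26.8 FPKM in the MEKi group, and the groups overlapped (log2 difference −0.09, SE 0.09, limma adjusted p = 0.859). *Mrpl13* (log2 difference −0.09, limma adjusted p = 0.867) and *Mrpl28* (−0.08, limma adjusted p = 0.919), both conserved, were also within this spread. *Mrpl58*, which can hydrolyze peptidyl-tRNA and takes part in the rescue of stalled ribosomes, averaged 16.8 ± 1.89 FPKM in the vehicle group and 18.1 ± 2.38 FPKM in the MEKi group (SD, n = 5 each), for a log2 difference of 0.11 (95% interval −0.14 to 0.36, limma adjusted p = 0.861).

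In the small subunit, *Mrps28* (chromosome 3, 8802146 to 8923918, minus strand) had the smallest unadjusted p of all members, 0.0375. Its level was 76.2, 68.8, 62.8, 63.2 and 53.8 FPKM in vehicle hearts 1 to 5 and 80.9, 74.6, 67.1, 88.8 and 75.6 FPKM in MEKi hearts 1 to 5. MEKi hearts 1 and 4 were above all vehicle hearts, and the other 3 lay below vehicle heart 1. The log2 difference was 0.26 (SE 0.11, limma adjusted p = 0.619, and p = 0.0556 by a two-sided exact permutation test). *Mrps10*, the member of lowest level, was at 3.21, 3.22, 2.82, 3.00 and 2.93 FPKM in the vehicle group and at 3.58, 3.48, 3.46, 3.40 and 2.76 FPKM in the MEKi group. MEKi hearts 1 to 4 exceeded every vehicle heart and MEKi heart 5 was below them all (log2 difference 0.13, SE 0.10, limma adjusted p = 0.805). *Mrps9*, a conserved protein, was at 14.1 ± 1.27 and 13.2 ± 1.05 FPKM (SD, n = 5 each; log2 difference −0.09, limma adjusted p = 0.846).

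Among the S18 paralogs, *Mrps18b* had the lowest estimate of all members. It was at 6.15, 6.87, 6.60, 5.91 and 7.01 FPKM in the vehicle group and at 7.48, 5.27, 4.43, 5.62 and 6.89 FPKM in the MEKi group, so MEKi hearts were found on both sides of the vehicle range (log2 difference −0.15, SE 0.14, limma adjusted p = 0.822). *Mrps18c* differed by −0.14 (SE 0.16, limma adjusted p = 0.880) and *Mrps18a* by 0.01 (SE 0.14, limma adjusted p = 0.994). *Mrps36* is named for the small subunit but its protein belongs to the 2-oxoglutarate dehydrogenase complex of the citric acid cycle. It was at 66.2, 43.0, 32.6, 48.4 and 42.4 FPKM in the vehicle group and at 53.0, 53.3, 47.5, 60.8 and 44.3 FPKM in the MEKi group. The MEKi values lay inside the vehicle range (log2 difference 0.18, SE 0.16, limma adjusted p = 0.820), and 3 processed pseudogenes of *Mrps36* could share its fragments.

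The 3 members whose intervals reached past 1.5-fold were picked for description after their values were seen. *Mrpl14*, a conserved protein at the interface of the subunits, varied most among hearts of the same group, with a residual SD of 0.39 on the log2 scale beside a median of 0.18 over the members and 0.06 for *Mrpl35*. It was at 112, 81.6, 44.8, 101 and 70.2 FPKM in the vehicle group and at 92.0, 103, 83.1, 118 and 92.2 FPKM in the MEKi group. The low value of vehicle heart 3 stood apart from all other hearts (95% interval of the log2 difference −0.16 to 0.78). *Mrpl14* overlaps *Tmem63b* on the opposite strand by 584 bases. *Mrpl54* was at 99.8, 66.2, 50.04, 82.01 and 81.04 FPKM in the vehicle group and 81.0, 86.7, 85.9, 104 and 86.2 FPKM in the MEKi group, again lowest in vehicle heart 3 (95% interval −0.09 to 0.61). *Mrpl39* was lowest in vehicle heart 5, at 12.9 FPKM, and highest in vehicle heart 3 and MEKi heart 4, at 24.6 FPKM each (95% interval −0.16 to 0.59).

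Hearts differed from each other more than the groups did, and many members varied together from heart to heart. For each heart, the deviation of every member from its own mean over the 10 hearts was taken on the log2 scale. The median deviation was 0.16, 0.002, −0.18, −0.0008 and −0.12 in vehicle hearts 1 to 5 and 0.03, 0.04, −0.03, 0.13 and −0.02 in MEKi hearts 1 to 5. Vehicle heart 1 was the highest and vehicle heart 3 the lowest, so the MEKi hearts lay within the vehicle range. The group means were −0.03 ± 0.13 with vehicle and 0.03 ± 0.07 with MEKi (SD, n = 5 each). In vehicle heart 1, 62 of the 77 members were above their own mean and 30 had their highest value of the 10 hearts. In vehicle hearts 3 and 5, 19 members each were above their mean, and 31 and 21 members had their lowest value there. Members named for either subunit showed this order, with 0.16 in vehicle heart 1 for both sets and −0.16 (large) and −0.18 (small) in vehicle heart 3. The members' share of all fragments was 0.563% in vehicle heart 1 and 0.398% in vehicle heart 3, the highest and the lowest of the hearts. With mitochondrial genes left out of the total, the shares were closer, at 0.748% and 0.612%, again the highest and the lowest.

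**Figure D4:**
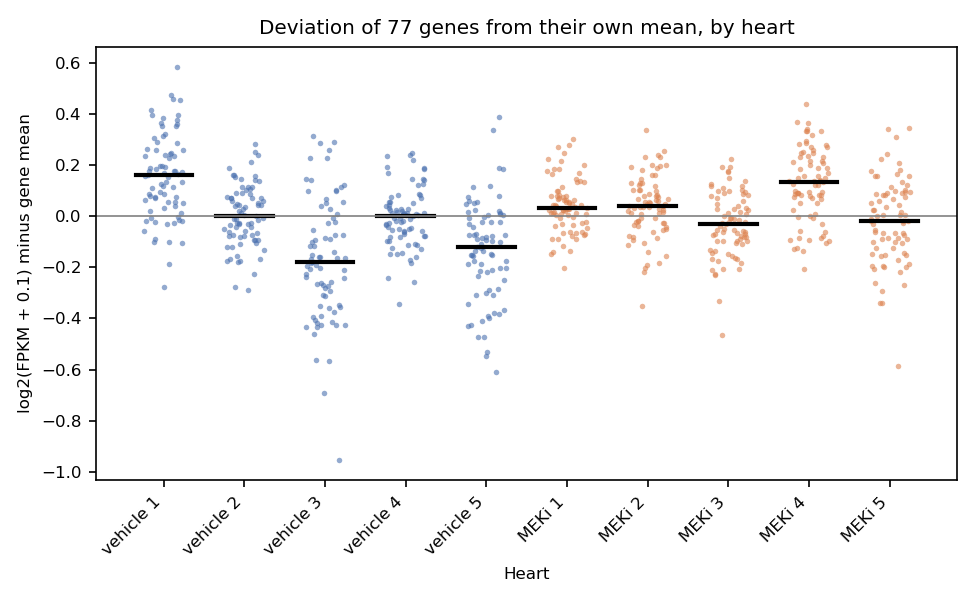
Each point is a member's log2(FPKM + 0.1) minus its own mean over the 10 hearts (y axis), shown for each heart (x axis, blue vehicle and orange MEKi) with the median of the 77 members as a black bar. Medians run from −0.18 in vehicle heart 3 to 0.16 in vehicle heart 1, and the 5 MEKi medians lie between −0.03 and 0.13.

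Some other gene lists differed between these hearts along with the members, and others did not. Protein-coding genes under 1500 bases, members left out (860 genes), had a median deviation of 0.19 in vehicle heart 1 and −0.27 in vehicle heart 3, while the 10315 such genes of 1500 bases or more stayed between −0.02 and 0.04 in all hearts. By the same deposited length, members of 1500 bases or more (56 genes) were at 0.13 and −0.16 in these hearts, and shorter members (21 genes) at 0.19 and −0.24. With a trend on gene length removed from each heart, the median difference of the members was 0.02 in place of 0.05. The part of transcript length or RNA quality in these values was not tested. The nuclear subunits of oxidative phosphorylation (82 genes) were at 0.30 and −0.34 in vehicle hearts 1 and 3. The cytosolic ribosomal proteins (77 genes) were at 0.22 and −0.49. Both lists were further from 0 than the members in the same direction. Nuclear lists of mitochondrial gene expression were mixed in these 2 hearts. Mitochondrial ribosomal proteins without an *Mrp* symbol were at 0.15 and −0.22 and assembly factors at 0.14 and −0.05. Mitochondrial translation factors were at −0.09 and −0.01 and aminoacyl-tRNA synthetases at −0.01 and 0.15. Genes of mitochondrial transcription were at −0.14 and 0.20 and regulators of mitochondrial biogenesis at −0.06 and −0.01. The 6 cardiomyocyte markers had median deviations of 0.18, −0.16, −0.13, −0.18 and −0.25 in vehicle hearts 1 to 5 and 0.07, 0.15, 0.15, 0.25 and −0.24 in MEKi hearts 1 to 5. They were thus high in vehicle heart 1 and MEKi heart 4, as the members were, and low in vehicle hearts 3 and 5, but also in vehicle hearts 2 and 4 and MEKi heart 5. Endothelial markers (5 genes) were lowest in vehicle heart 3, at −0.29, and so were those of smooth muscle and pericytes (4 genes past the filter), at −0.48. The part of cell makeup in the members' values was not tested. The 13 mitochondrially encoded mRNAs, the templates of the mitochondrial ribosome, went the other way in these 2 hearts, at −0.10 in vehicle heart 1 and 0.55 in vehicle heart 3. Mitochondrial genes took 24.7% of the fragments in vehicle heart 1 and 35.01% in vehicle heart 3, and between 23.95% and 28.7% in the MEKi hearts.

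**Figure D5:**
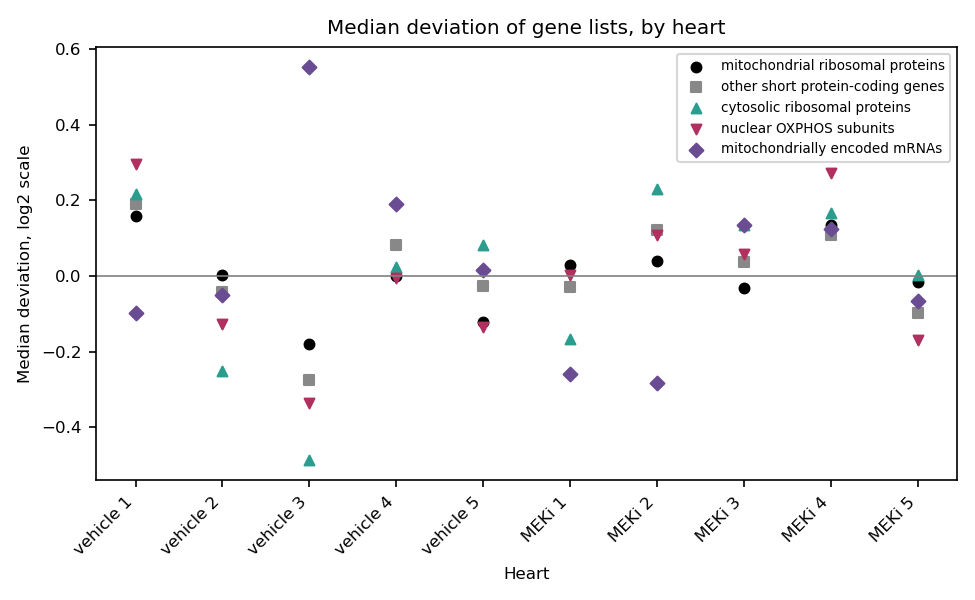
Points give the median deviation of each gene list from its genes' own means on the log2 scale (y axis) in each of 10 hearts (x axis). The members (black circles) span −0.18 to 0.16, less than the cytosolic ribosomal proteins, which reached −0.49 in vehicle heart 3, where mitochondrially encoded mRNAs were at 0.55.

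Between the groups, the nuclear and cytosolic lists had medians above 0 and the mitochondrially encoded list below 0, with no gene called in any of them. Of the 82 oxidative phosphorylation genes, 71 were above 0 with a median log2 difference of 0.12. Of the 77 cytosolic ribosomal protein genes, 71 were above 0 with a median of 0.16. The share above 0 over all genes tested was 52.1%. Genes of these lists varied together from heart to heart, so the counts are not read as results about the lists. Of the 13 mitochondrially encoded mRNAs, 10 were below 0 with a median of −0.20. *mt-Nd1*, a core subunit of complex I, averaged 43299 ± 2780 FPKM in the vehicle group and 35554 ± 5035 FPKM in the MEKi group (SD, n = 5 each; log2 difference −0.29, SE 0.16, limma adjusted p = 0.698). *mt-Nd4* differed by −0.26 (SE 0.16, limma adjusted p = 0.733). *mt-Atp8*, which shares bases with *mt-Atp6* and so may lose shared fragments in counting, was at 16.5 ± 8.74 and 37.3 ± 29.4 FPKM (log2 difference 1.06, SE 0.49, limma adjusted p = 0.652).

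The rest of the machinery of mitochondrial translation was taken from lists of genes that do not carry an *Mrp* symbol. Ribosomal proteins with other names (*Dap3*, *Chchd1*, *Ptcd3*, *Aurkaip1* and *Gadd45gip1*) were all measured, and 0 of 5 passed the threshold. All had estimates above 0 (median 0.11), where 52.1% of all genes tested did. *Gadd45gip1* averaged 20.5 ± 3.05 FPKM in the vehicle group and 23.1 ± 1.59 FPKM in the MEKi group, *Dap3*, the GTP-binding protein of the small subunit, at 13.5 ± 1.48 and 14.9 ± 0.260 FPKM and *Chchd1* at 73.0 ± 16.4 and 77.3 ± 5.24 FPKM (SD, n = 5 each; limma adjusted p = 0.736, 0.739 and 0.895). Of 21 assembly factors, 0 were called and 2 had an unadjusted p under 0.05, where the share over all genes tested was 7.62%, so this count is no result about the list. They are given by their values. *Mtg1*, a GTPase of large-subunit assembly, was at 5.37 ± 0.678 and 6.63 ± 0.772 FPKM (log2 difference 0.30, SE 0.12, limma adjusted p = 0.569), and *Rpusd4*, which makes pseudouridine in the large ribosomal RNA, at 4.11 ± 0.415 and 4.94 ± 0.440 FPKM (log2 difference 0.26, SE 0.10, limma adjusted p = 0.572). Next by p was *Mterf4*, which guides an RNA methyltransferase to the ribosome, with a difference of −0.22 (limma adjusted p = 0.740).

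Of 15 translation factors and helpers, 14 had estimates above 0 (median 0.06) and 0 were called, where 52.1% of all genes tested were above 0. *Oxa1l*, which inserts newly made proteins into the inner membrane at the ribosome, was from 15.2 to 18.3 FPKM in the vehicle group and from 18.6 to 21.3 FPKM in the MEKi group. Its groups did not overlap (means 17.1 ± 1.30 and 19.7 ± 1.01 FPKM; two-sided exact permutation test, p = 0.00794, the smallest possible for 5 against 5). The groups also did not overlap in 1.64% of all genes tested. *Oxa1l* did not pass the threshold over all genes (log2 difference 0.20, SE 0.08, limma adjusted p = 0.591). *Tsfm*, the exchange factor of the elongation factor Tu, differed by 0.24 (limma adjusted p = 0.705) and *Mtrf1*, a release factor, by 0.17 (limma adjusted p = 0.820). Of the 17 mitochondrial aminoacyl-tRNA synthetases, 0 were called and 11 had estimates above 0, with differences of 0.32 for *Ears2*, 0.31 for *Sars2* and 0.40 for *Lars2* (limma adjusted p = 0.569, 0.664 and 0.679).

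Genes of mitochondrial transcription and general regulators of mitochondrial biogenesis were examined with the same fit, and whether these regulators act on the members was not tested. Of 7 genes of mitochondrial transcription, 5 passed the filter and 0 were called. *Tfam*, which packages mitochondrial DNA, averaged 8.45 ± 1.17 FPKM in the vehicle group and 8.25 ± 0.610 FPKM in the MEKi group (log2 difference −0.03, SE 0.11, limma adjusted p = 0.967). *Tfb2m* and *Tefm* differed by −0.09 and 0.08 (limma adjusted p = 0.934 and 0.936). Of 9 regulators of mitochondrial biogenesis, 0 were called. *Pprc1*, a coactivator related to PGC-1, was at 1.74 ± 0.279 and 1.32 ± 0.254 FPKM (log2 difference −0.38, SE 0.17, limma adjusted p = 0.628), *Esrra*, a nuclear receptor of oxidative metabolism, at 64.8 ± 14.5 and 74.7 ± 12.5 FPKM (log2 difference 0.22, limma adjusted p = 0.794) and *Gabpb1*, the partner of GABPA, at 1.07 ± 0.248 and 1.24 ± 0.156 FPKM (log2 difference 0.21, limma adjusted p = 0.807).

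Overlap with other genes limits the values of some members. Of all 78 members, 41 overlap the span of another gene. For 18 members such a gene had a mean of at least 0.5 FPKM, for 16 of them on the opposite strand. This cut leaves out overlaps with genes listed below 0.5 FPKM, in which shared fragments can also be lost. The strand setting of the counting is not given in the sources used here, so fragments of such pairs cannot be assigned with certainty. Without the 18 members the median log2 difference was still 0.05. Then 2 members had an unadjusted p under 0.05 in limma, where the share over all genes tested was 7.62%, so this count is no result about the members.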

How the data were processed

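RNA sequencing of poly(A) RNA was measured in 10 *Rit1* M90I/+ hearts, 5 given vehicle and 5 given MEKi, grouped and numbered by their sample titles, which call them biological replicates. Litter and sex are not labelled. Hearts of the study were fixed in formalin for histology, and whether fixed tissue gave the RNA is not given in the sources used here.

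Per the labels' processing notes, the authors used fastp, STAR 2.5 and HTSeq 0.6.1 with mm10, and deposited FPKM values per gene. The strand setting and the annotation release are not given in the sources used here. FPKM times gene length and a factor for each heart gave whole fragments for 100% of values (tolerance 0.01). Depth and a floor of 3 fragments per heart were taken from these fragments. Depth covers counting error only.

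Genes averaging 0.5 FPKM or more were compared on log2(FPKM + 0.1) with limma 3.58.1 (R 4.3.3; empirical Bayes with trend, Benjamini-Hochberg adjustment over 12602 genes, threshold 0.05), which understates changes of low genes. Single genes had a two-sided exact permutation test over 252 assignments (scipy 1.17.1), without adjustment for the number of genes. Members named were the 6 with the lowest p in each direction, the 5 highest and 5 lowest in level, the S18 paralogs, *Mrpl12*, *Mrpl58* and *Mrps36*, and from each mitochondrial list the 3 genes with the lowest p. *Mrpl14*, *Mrpl39* and *Mrpl54* were chosen after their values were seen. The script was tested on simulated data, in which 10.8% of 1.5-fold and 85.9% of 2-fold changes were called. Alternatives changed the pseudocount, filter, scaling, variance model, weights, replicate block, gene length and the hearts used. Members and gene lists were chosen with earlier results of these data known. Values given for a subunit as a set go by gene symbol, whatever the place of the protein. Conservation classes and roles come from general knowledge, and *Mrps36* is counted among the members added in mitochondria. Promoter windows came from RefSeq (GRCm38.p6), and the members' coordinates are those of the deposited table.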

Additional observations from a re-analysis of the deposited data

Results flagged for a closer look

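A single MEKi heart stood far from the other 4 in *Mrps10*, which encodes a conserved protein of the small subunit. MEKi heart 5 was at 2.76 FPKM and the others lay between 3.40 and 3.58 FPKM. Of 54 groups of 5 hearts examined this way, 1 was marked, where chance marks about 1 in 20, or 2.7 of them.

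Processed pseudogenes of members lay outside the comparisons and held fragments above the floor of 3. The heart with most had 23 fragments on *Mrps36-ps1*, 37 on *Mrpl23-ps1*, 25 on *Mrpl48-ps* and 8 on *Mrps36-ps2*. Whether these fragments came from the parent genes was not tested.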

How the results depend on the processing

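No member was called under any of the 23 alternatives, and the lowest adjusted p of a member was 0.381 (*Mrpl48*, without vehicle heart 1). The median difference of the members stayed above 0, from 0.02 without vehicle heart 3 to 0.12 on the TPM scale, and that of the small subunit was −0.01 without vehicle heart 3. Of 550 values of named members, 28 changed direction, in 6 of 24 members. The count of members with an unadjusted p under 0.05 was 3. It was 0 in eBayes without trend and 0 with the replicate block, where 7.66% and 6.12% of all genes had such a p. With the length trend removed it was 1, beside 8.18% of all genes. Leaving out a heart gave 0 to 9 members, the highest without vehicle heart 1, beside 6.43% to 9.99% of all genes. The count of members was 0 without vehicle heart 3, vehicle heart 5 or MEKi heart 4, and 1 without vehicle heart 4 or MEKi heart 1, 2 or 5. Members whose groups did not overlap numbered 0 to 2 on leaving out a heart. These were *Mrpl35* and *Mrpl48* without vehicle heart 1, where the share of all genes was 3.53%. Without MEKi heart 5 it was *Mrps10*, where that share was 2.51%. Genes called in all numbered 10, and 2 with a mean of at least 5 FPKM, 18 with array weights, 4 with the replicate block, 0 without X, Y and mitochondrial genes in limma (924 at an unadjusted p under 0.05) and 5 to 13 on leaving out a heart, the lowest without vehicle heart 2. The cause of these shifts was not tested. Hearts of the same number did not deviate together (r from −0.154 to −0.0209), and no vehicle heart correlated best with the MEKi heart of its number. Whether hearts of the same number shared a litter is not labelled. Depth limits *Mrps18b* most, with 136 to 268 fragments per heart.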
